A study of Mus musculus with 10 samples.

Results

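The genes described here are 97 developmental transcription factors of 11 families, out of 19235 protein-coding genes on the chromosomes analysed. They are the protein-coding genes named Hoxa, Hoxc, Hoxd, Pax, Gata, Lhx, Nkx, Dlx, Tbx or Sox with a member number, and the sine oculis homeobox family, which includes Six6. Sox2, Tbx3 and Sox15 were kept out by the rule, and chromosomes 8 and 11 were not analysed here. The Hoxa family has 11 members, Hoxc and Hoxd have 9 each, Pax 9, Gata 6, Lhx 7, Nkx 13, Dlx 4, Tbx 9 and Sox 14, and the sine oculis homeobox family has 6. The names were chosen by family and not by a measured value.

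Chromatin immunoprecipitation with sequencing (ChIP-seq) was done with an antibody to the HA tag in mouse embryonic stem cells, to locate the SETα and SETβ isoforms of the chromatin protein SET. All 4 groups are KH2 cells, a line with a site for a doxycycline-inducible transgene, and all received 1 µg/ml doxycycline for 24 h before crosslinking with DSG and formaldehyde. In the addback groups, HA-SETα or HA-SETβ was expressed in SET KO cells, and in the overexpression groups the same transgenes (pBS31-HA-SETa and pBS31-HA-SETb) were expressed in SET wild-type cells. Each group has 2 replicates, and nothing in the labels says that they are separate cultures, so p-values measure only the spread between these libraries. Each group is also its own cell line, so line and group cannot be told apart. Cells were grown on feeder fibroblasts that were depleted before harvest, and peak lists hold no expression values against which the labelled cell type could be checked. No background from cells without the tagged protein stands beside any value, because the 2 SET KO samples that received no doxycycline were not analysed here.

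Members of these families bind DNA through a homeodomain, a paired domain, a zinc finger, a T-box or an HMG box, and they specify position, lineage and cell fate in the embryo. Hox genes lie in clusters in which gene order follows the order of expression along the body axis. In embryonic stem cells most of these genes are silent, and many of their CpG-rich promoters are known to be covered by Polycomb proteins. SET is known as a histone chaperone and as an inhibitor of histone acetylation.

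The lists differed in length, which bears on every count below. SETα addback libraries held 22176 and 15701 peaks and SETβ addback libraries 2518 and 9768. SETα overexpression libraries held 4807 and 7675 and SETβ overexpression libraries 1343 and 2869. Each group also had a list made from both replicates by the irreproducible discovery rate (IDR), which keeps peaks that both replicates rank alike. With SETα those lists held 530 peaks after addback and 127 after overexpression, and with SETβ 485 and 101. In the SETα overexpression libraries 69.4% and 62.2% of the peaks lay in an 18 Mb segment of chromosome 6, where the other 6 libraries had between 1.99% and 4.36% of theirs, and none of the 97 members lies in it. Read depth is unknown from peak lists, and the part of depth in the counts was not tested. A gene was counted when a peak overlapped the 1 kb on either side of the start or the end of the gene.

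Hoxd13 was the only member with a peak in all 4 addback libraries. It is the Hox gene at the end of the Hoxd cluster and is needed for digit and genital development. The promoter sequences are shown for Hoxd13 and for the 3 members that follow it in number of libraries with a peak and then in peak strength, among those with a peak over the listed start. Sox12 is a SoxC family factor of neural and mesenchymal progenitors. Hoxd8 lies in the middle of the Hoxd cluster, and Six6 is a homeodomain factor of eye and pituitary development. Each line gives the 250 bases before the start, 5′ to 3′ on the gene's strand, from RefSeq on GRCm38.p6, with every CG dinucleotide in capitals.
Hoxd13: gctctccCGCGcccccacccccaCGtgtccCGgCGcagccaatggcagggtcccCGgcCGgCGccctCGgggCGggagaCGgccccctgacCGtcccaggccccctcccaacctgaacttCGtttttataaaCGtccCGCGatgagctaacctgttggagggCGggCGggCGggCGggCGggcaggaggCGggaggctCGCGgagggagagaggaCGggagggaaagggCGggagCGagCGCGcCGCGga
Sox12: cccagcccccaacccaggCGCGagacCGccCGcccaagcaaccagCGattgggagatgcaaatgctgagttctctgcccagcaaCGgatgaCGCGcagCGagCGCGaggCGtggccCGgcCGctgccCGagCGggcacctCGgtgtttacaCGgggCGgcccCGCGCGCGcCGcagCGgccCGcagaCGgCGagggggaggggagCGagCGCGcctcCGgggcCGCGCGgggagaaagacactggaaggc
Hoxd8: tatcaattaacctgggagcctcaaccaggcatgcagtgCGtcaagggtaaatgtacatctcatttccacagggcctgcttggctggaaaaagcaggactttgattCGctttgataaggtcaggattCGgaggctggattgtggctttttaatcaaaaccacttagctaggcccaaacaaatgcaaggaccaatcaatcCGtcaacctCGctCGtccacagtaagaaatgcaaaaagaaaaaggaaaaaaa
Six6: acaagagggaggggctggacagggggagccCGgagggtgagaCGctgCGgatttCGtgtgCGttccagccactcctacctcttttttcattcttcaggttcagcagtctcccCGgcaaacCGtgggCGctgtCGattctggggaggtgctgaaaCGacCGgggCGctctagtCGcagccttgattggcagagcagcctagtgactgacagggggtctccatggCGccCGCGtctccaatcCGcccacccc
The intervals are chr2:74667975-74668224 (plus strand) for Hoxd13, chr2:152398047-152398296 (minus strand) for Sox12, chr2:74704365-74704614 (plus strand) for Hoxd8 and chr12:72939632-72939881 (plus strand) for Six6. The sequence searched was CG, which reads the same on both strands, and 93.0% of 18832 such windows of 15496 protein-coding genes hold it at least once. The median window had 9 CG, with quartiles of 3 and 19, and a GC share of 55.2%. The Hoxd13 window held 31 CG with a GC share of 74.4%, and 93.5% of windows held fewer. The Sox12 window held 35 CG at 74.4% GC, and 96.3% of windows held fewer. Six6 had 17 CG at 62.8% GC (69.2% of windows held fewer). Hoxd8 had 6 CG at 44.4% GC (38.7% held fewer), so the 4 windows run from mid-range to CG-rich. A peak lay over the start in all 4 addback libraries at Hoxd13, in both SETα addback libraries at Sox12, in SETα addback replicate 1 at Hoxd8 and in SETα addback replicate 2 at Six6. RefSeq starts were listed for 70 of 97 members (72.2%) against 80.6% of all coding genes, so a comparison of promoter composition over the members is void and none is given.

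Members had peaks mainly in the addback libraries. In SETα addback, 45 of 97 members (46.4%, Wilson 95% interval 36.8% to 56.3%) had a peak in replicate 1, where 34.3% of all protein-coding genes had one. In replicate 2 the count was 46 (47.4%, 37.8% to 57.3%) against 31.8% of coding genes. In SETβ addback, 7 members (7.22%, 3.54% to 14.2%) had a peak in replicate 1 against 8.41% of coding genes, and 29 (29.9%, 21.7% to 39.6%) in replicate 2 against 18.4%. SETα addback libraries thus lay close together, and the SETβ addback libraries lay far apart and on either side of their background. Intervals cover counting error only, and neighbouring members can share a peak.

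With SET wild type, peaks at members were nearly absent. Neither SETα overexpression library had a peak at any of the 97 members, where 0.983% and 1.90% of coding genes had one. SETβ overexpression replicate 1 also had 0 members, against 0.338% of coding genes. Replicate 2 had 2 members (2.06%, Wilson 95% interval 0.567% to 7.21%), Six6 and Tbx6, against 1.85%. After the peak caller's adjustment for multiple testing, both of these peaks had a −log10 q of 0.00. With a q of at most 0.05, no member had a peak in any overexpression library. Of coding genes, 0.187% and 0.697% then had one with SETα overexpression and 0.0208% and 0.104% with SETβ overexpression. A count of 0 among 97 genes allows a share of up to 3.81% (Wilson 95%), which is above each of these backgrounds, so a difference from other genes was not detectable in these lists.

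**Figure D1:**
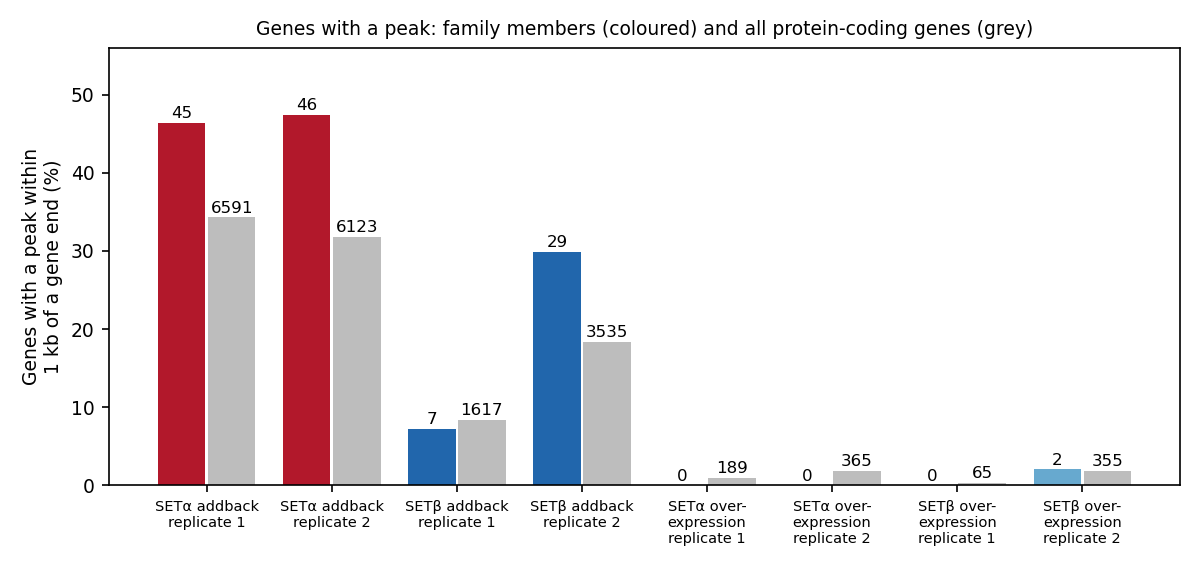
Share of genes with a peak within 1 kb of a gene end (%, vertical axis) in each of the 8 libraries, with coloured bars for the 97 family members and grey bars for all 19235 protein-coding genes. Numbers above the bars are gene counts; members stand above the grey bars in 3 addback libraries and below them in SETβ addback replicate 1.

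The isoforms were first compared by the number of members that carry a peak. The share of members was 46.9% ± 0.729 (SD, n = 2) in SETα addback and 18.6% ± 16.0 (SD, n = 2) in SETβ addback. In the overexpression groups it was 0 with SETα and 1.03% ± 1.46 (SD, n = 2) with SETβ. Averaged over both backgrounds, SETα exceeded SETβ by 13.7 percentage points (exact two-sided permutation test over libraries, p = 0.333). The difference was 28.4 points in SET KO cells and −1.03 points in SET wild-type cells. The average was 7.99 points without SETβ addback replicate 1 and 19.3 points without replicate 2. With its 36 arrangements this permutation test cannot give a p below 0.0556, so it cannot pass 0.05.

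Measured as the share of members minus the share of all coding genes, the isoforms lay closer. With addback this difference was 12.1 and 15.6 points for SETα and −1.19 and 11.5 points for SETβ. It was −0.983 and −1.90 points with SETα overexpression and −0.338 and 0.216 points with SETβ overexpression. SETα exceeded SETβ by 3.66 points on this measure (exact two-sided permutation test, p = 0.611). That value was 0.480 points without SETβ addback replicate 1 and 6.83 points without SETβ addback replicate 2. Within SET KO cells it was 8.69 points and within SET wild-type cells −1.38 points. The addback values did not overlap between the isoforms, but SETβ addback replicate 2 (11.5) lay just under SETα addback replicate 1 (12.1).

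The second comparison set the backgrounds against each other. Members had peaks more often in SET KO than in SET wild-type cells, by 32.2 points (exact two-sided permutation test, p = 0.0556, the smallest it can give). The difference was 46.9 points with SETα and 17.5 points with SETβ, and the lowest addback library (7 members) lay above the highest overexpression library (2 members). After subtraction of the share of all coding genes, 10.3 points remained (exact two-sided permutation test, p = 0.167), 15.3 with SETα and 5.23 with SETβ. Coding genes as a whole were also higher in SET KO cells, at 33.0% ± 1.72 and 13.4% ± 7.05 (SD, n = 2) in the SETα and SETβ addback groups and 1.44% ± 0.647 and 1.09% ± 1.07 (SD, n = 2) in the overexpression groups. The isoform difference in SET KO cells exceeded that in SET wild-type cells by 29.4 points for members (exact permutation, p = 0.167). After subtraction it did so by 10.1 points (exact permutation, p = 0.0556, the smallest it can give). Both permutations moved isoform labels within each background, so their null is no isoform difference in either background. They cannot decide whether the isoform difference itself differed between backgrounds.

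None of the 97 members had a peak in any of the 4 IDR lists, which allows a share of up to 3.81% (Wilson 95%). Of all coding genes, 2.78% had one in the SETα addback list and 2.62% in the SETβ addback list, with 0.0676% and 0.0260% in the overexpression lists. All 4 of these shares lie under the limit, so a lower share at members was not detectable from the counts alone. The weakest peak in the SETα addback IDR list had a −log10 p of 7.63 and the median one 19.24. At members that lowest value was reached by 4 genes in SETα addback replicate 1 and by 1 gene in replicate 2, and by none in both. For SETβ addback the weakest IDR peak had a −log10 p of 6.69, reached by 0 and 1 members in the 2 libraries.

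Replicates shared more members in SETα than in SETβ addback. Both SETα addback libraries had a peak at 33 members (34.0%, against 22.0% of coding genes). These were 73.3% of the members called in replicate 1 and 71.7% of those in replicate 2. For all coding genes the same shares were 64.1% and 69.0%. Both SETβ addback libraries had a peak at 1 member, Hoxd13 (1.03%, against 5.85% of coding genes), which was 14.3% of the 7 in replicate 1 and 3.45% of the 29 in replicate 2. For all coding genes those shares were 69.6% and 31.8%. Of the members called in SETβ addback replicate 1, SETα addback replicate 1 also held 7 of 7 (86.8% for coding genes) and replicate 2 held 6 (85.7% against 86.1%). Of the 29 in SETβ addback replicate 2, the SETα libraries held 20 (69.0% against 70.7%) and 17 (58.6% against 69.3%).

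Counted over the 4 addback libraries, 33 members had no peak (34.0%, against 52.5% of coding genes). A peak was present in 1 library at 21 members (21.6% against 19.6%), in 2 at 24 (24.7% against 15.5%) and in 3 at 18 (18.6% against 7.23%). All 4 libraries had a peak at 1 member (1.03% against 5.15%). Members were thus more frequent than coding genes at 2 and 3 libraries. At 4 libraries the count of 1 of 97 has a Wilson interval of 0.182% to 5.61%. That interval includes the coding share of 5.15%, so a lower share of members there was not detectable. At least 1 addback library had a peak at 64 members (66.0%, against 47.5% of coding genes).

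With every peak of the lists counted, Hox genes, which set segment identity along the body axis, had peaks more often than the other members together. In SETα addback, 19 of 29 Hox members (65.5%) had a peak in replicate 1 and 22 (75.9%) in replicate 2, while 26 (38.2%) and 24 (35.3%) of the other 68 members did. In SETβ addback, 5 Hox members (17.2%) and 2 others (2.94%) had one in replicate 1, and 13 (44.8%) and 16 (23.5%) in replicate 2. The shares of all coding genes were 34.3% and 31.8% in SETα addback and 8.41% and 18.4% in SETβ addback. Both SETα addback libraries had a peak at 16 Hox members (55.2%) and 17 other members (25.0%), against 22.0% of coding genes. At least 1 addback library had a peak at 26 of the 29 Hox members, the exceptions being Hoxc4, Hoxc6 and Hoxd10. The members other than Hox genes were therefore near the coding background in the SETα addback libraries and below and above it in SETβ addback replicates 1 and 2. Hox genes share windows and peaks with their neighbours, so these counts are a description without a test.

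**Figure D2:**
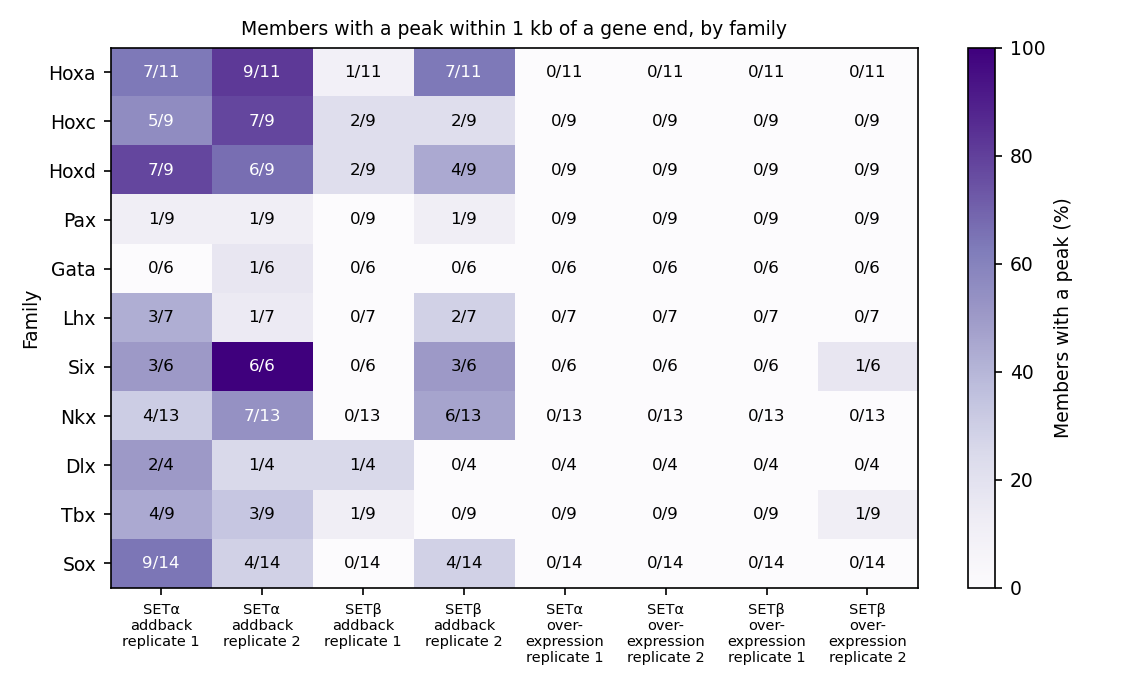
Members with a peak within 1 kb of a gene end in each family (rows) and library (columns), as count of members in the family; colour gives the percentage. The SETα addback columns are darkest, with 6 of 6 members of the sine oculis homeobox family in replicate 2, Pax and Gata are light throughout, and the overexpression columns hold 2 entries above 0.

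Peaks were spread along the Hox clusters rather than gathered at 1 site. In the Hoxa cluster (chromosome 6, 105.5 kb), SETα addback libraries had 18 and 19 peaks within 1 kb of the cluster, and SETβ addback libraries 1 and 14. The Hoxc cluster (chr15:102921131-103036856 on GRCm38, 115.7 kb) held 13 and 11 with SETα and 2 and 4 with SETβ. In the Hoxd cluster (chr2:74668225-74765142, 96.9 kb) the numbers were 21 and 14 with SETα and 3 and 5 with SETβ. None of the overexpression libraries or IDR lists had a peak within 1 kb of these 3 clusters. The highest −log10 p in a cluster was 8.20, in the Hoxa cluster of SETα addback replicate 2. Median peak widths there lay between 240.5 and 361 bp, so each peak covered a small part of a cluster. Several cluster genes overlap non-coding or antisense RNA genes (Hoxa11os at Hoxa11, Haglr at Hoxd1), and a peak cannot be assigned to either partner.

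**Figure D3:**
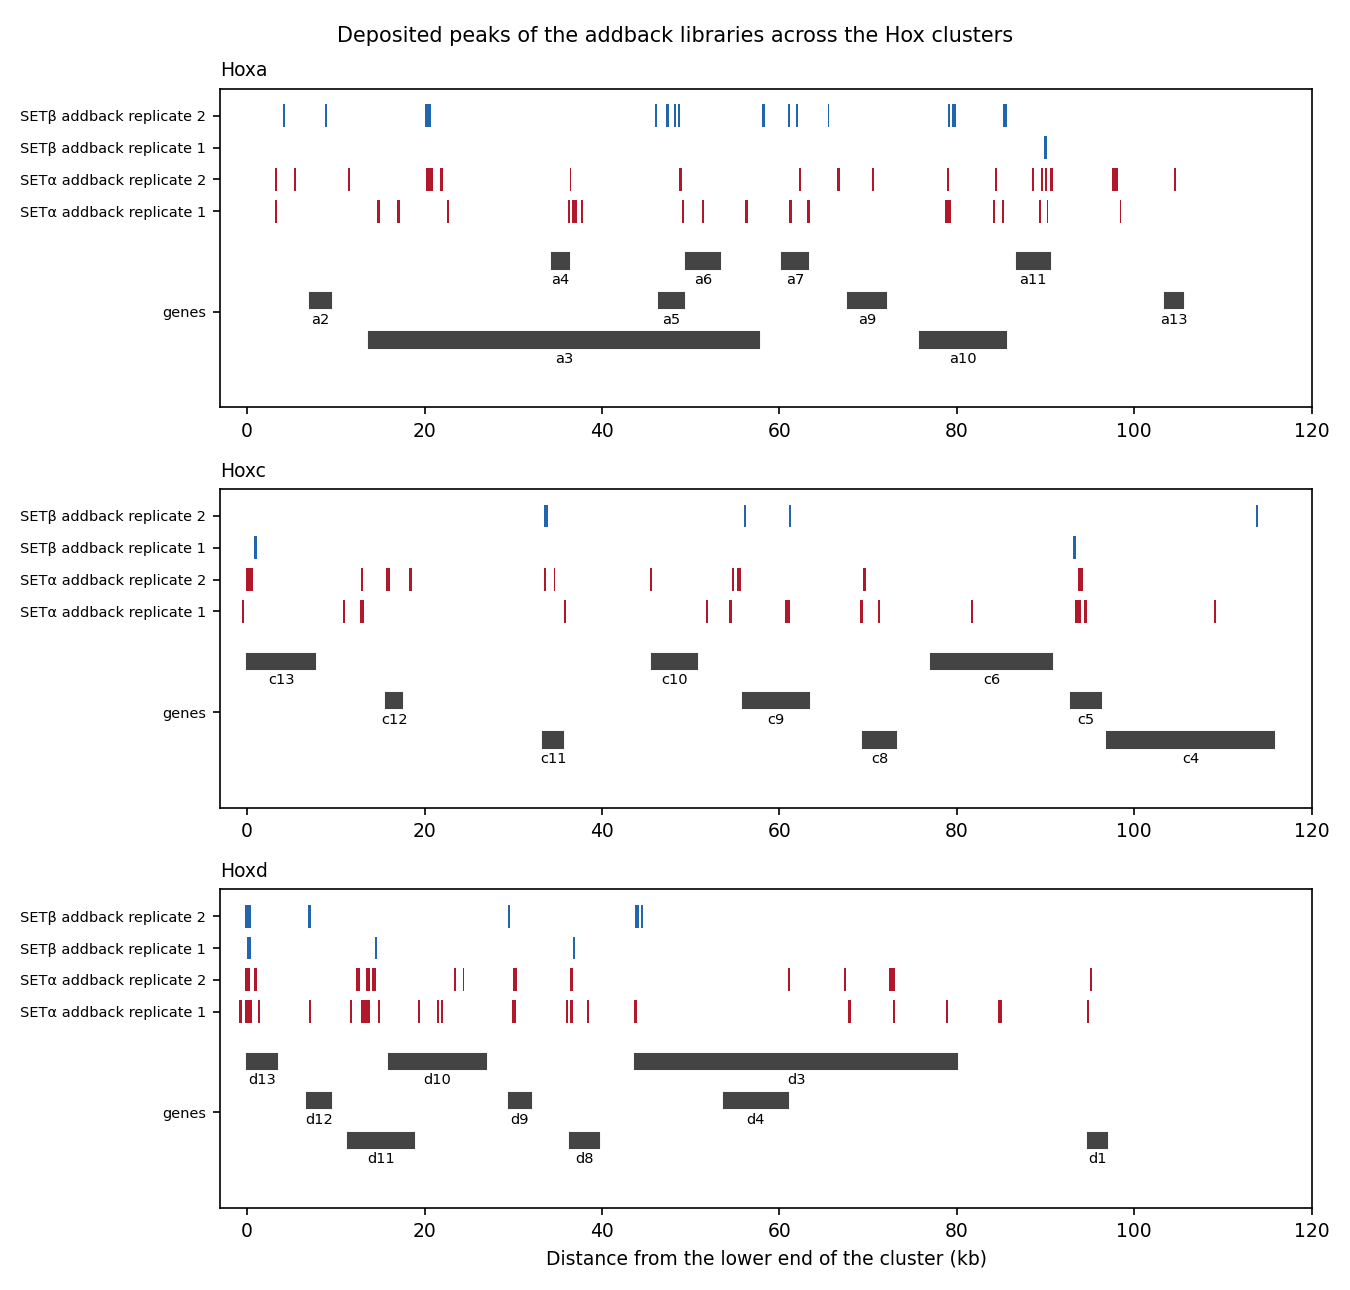
Deposited peaks (vertical marks) of the 4 addback libraries along the Hoxa, Hoxc and Hoxd clusters, with distance from the lower end of the cluster on the horizontal axis (kb) and gene bodies, not all of them drawn, as dark bars. Marks are scattered over each cluster; the clearest alignment over 4 rows is at d13, at the left of the Hoxd cluster.

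At Hoxd13 the −log10 p of the strongest peak was 6.88 and 5.54 in the SETα addback libraries, 5.05 and 5.27 in the SETβ libraries, and the overexpression libraries had no peak there. The peak of 6.88, in SETα addback replicate 1, was chr2:74667363-74667657 and did not reach the gene start. Peaks over the Hoxd13 start spanned chr2:74668010-74668739 and chr2:74668045-74668597 with SETα and chr2:74668223-74668619 and chr2:74667970-74668645 with SETβ. The deposited folds of these 4 peaks were 2.94, 3.42, 3.19 and 3.39. Their −log10 p was 4.58, 5.54, 5.05 and 5.27. After the peak caller's adjustment for multiple testing (−log10 q) it was 1.29, 2.02, 1.12 and 1.36. The positions of these start peaks overlapped in all 6 pairs of addback libraries. Their folds lay near the median fold of the strongest peak per member, which was 3.27, 3.58, 3.19 and 3.15 in these libraries. The start peaks of replicate 1 of both isoforms missed a q of at most 0.05. Whether the isoforms bound Hoxd13 alike was not tested.

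Hoxa11, a regulator of limb and uterine development, had peaks of −log10 p 5.04 and 6.50 with SETα addback and 5.31 in SETβ addback replicate 1, with none in replicate 2. The peak positions of these 3 libraries overlapped one another in every pair. Hoxd8 had 7.63 and 4.93 with SETα and 5.05 in SETβ addback replicate 1. Its SETα peaks overlapped each other, whereas the SETβ peak lay apart from both. Hoxd9, its neighbour, had 6.88 and 4.20 with SETα and 2.83 in SETβ addback replicate 2, the last with a −log10 q of 0.00. The −log10 p values of single genes, here and below, are before adjustment for multiple testing, and many of these peaks miss a q of at most 0.05. In each of these genes the peak missing was in a SETβ library.

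Among the other Hoxa genes, Hoxa5, which acts in lung and neck development, had −log10 p values of 4.77 and 4.93 with SETα and 5.27 in SETβ addback replicate 2. The peaks that count for Hoxa6 in each SETα library are the same ones as for Hoxa5, since the genes adjoin. Hoxa7 had 6.15 and 4.20 with SETα and 4.61 in SETβ addback replicate 2, and Hoxa10, a regulator of the hindlimb and uterus, had 4.40, 4.20 and 3.39 in the same 3 libraries. Hoxa4 had 5.44 and 4.93 with SETα and no SETβ peak. These genes showed no peak in SETβ addback replicate 1.

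In the Hoxc cluster, Hoxc5 had −log10 p values of 5.44 and 4.93 with SETα and 4.70 in SETβ addback replicate 1. Hoxc13, which acts in hair and nail formation, had 4.77 and 5.70 with SETα and 5.05 in SETβ addback replicate 1. Hoxc11 had 4.12 and 5.70 with SETα and 3.39 in SETβ addback replicate 2. Hoxc8 had 4.12 and 6.10 with SETα alone. The Hoxc genes thus divided between the SETβ libraries, and none had a peak in both.

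The sine oculis homeobox family, homeodomain factors of eye, kidney and muscle development, had 3 and 6 of 6 members with a peak in SETα addback and 0 and 3 in SETβ addback. For this family and those below, the shares of all coding genes were 34.3% and 31.8% in SETα addback and 8.41% and 18.4% in SETβ addback. Six6 had −log10 p values of 3.51 and 7.33 with SETα addback, none with SETβ addback and 3.01 in SETβ overexpression replicate 2. The strongest Six6 peak, chr12:72939701-72940097 in SETα addback replicate 2, ran over the start and had a fold of 4.55. Six4 had 4.77 and 4.20 with SETα and 4.94 in SETβ addback replicate 2. The Six5 peak of SETα addback replicate 2 (−log10 p 9.09, fold 5.20) was the strongest of that library at any member, but it also lay within 1 kb of Dmpk. Six5 had no peak in SETα addback replicate 1 and was singled out after its values were seen.

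The Nkx family, homeodomain factors of heart, brain, gut and pancreas, had 4 and 7 of 13 members with a peak in SETα addback and 0 and 6 in SETβ addback. The SETα shares were 30.8% and 53.8%, below and above the 34.3% and 31.8% of coding genes. Nkx1-1 had −log10 p values of 6.88 and 4.20 with SETα and 3.71 in SETβ addback replicate 2. Nkx2-4 had 6.15, 4.20 and 3.98, and Nkx6-1, which acts in beta cells and motor neuron progenitors, had 4.12, 4.93 and 3.39 in the same 3 libraries. Nkx2-3, a factor of gut and spleen development, had 7.63 and 4.20 with SETα only. The SETα values of Nkx1-1, Nkx2-4 and Nkx2-3 were higher in replicate 1 and that of Nkx6-1 in replicate 2.

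Sox factors bind DNA through an HMG box. Their counts were 9 and 4 of 14 in SETα addback and 0 and 4 in SETβ addback, the widest gap in counts between SETα replicates among the families. The SETα shares were 64.3% and 28.6%, above and below the 34.3% and 31.8% of coding genes. Sox12 had −log10 p values of 9.22 and 5.70 with SETα and 4.94 in SETβ addback replicate 2, and its 9.22 was the highest value at any member. Sox17, a regulator of endoderm, had 3.51 and 6.50 with SETα alone. Sox13 and Sox8 each had 5.44 and 4.20 in the SETα addback libraries. Sox18, a vascular regulator, had 6.15 in SETα addback replicate 1 and 6.99 in SETβ addback replicate 2, the highest at a member with SETβ, and was named after its values were seen.

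T-box factors act in heart, limb and mesoderm formation, and 4 and 3 of 9 had a peak in SETα addback and 1 and 0 in SETβ addback. The SETα shares were 44.4% and 33.3%, against 34.3% and 31.8% of coding genes. Tbx18 had −log10 p values of 5.44 and 4.20 with SETα and 5.05 in SETβ addback replicate 1. Tbx1, a factor of pharyngeal development, had 6.15 and 4.93 with SETα only. Tbx10 had 5.04 and 4.20 with SETα, and both of these peaks also lay within 1 kb of Nudt8. Tbx6, the other member with an overexpression peak, had 4.12 in SETα addback replicate 1 and 3.56 in SETβ overexpression replicate 2, and both peaks also lay near Ypel3. Of the 2 overexpression peaks at members, that at Six6 thus had no other coding gene beside it.

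The LIM-homeobox family (Lhx), factors of brain and limb patterning, had 3 and 1 of 7 members with a peak in SETα addback and 0 and 2 in SETβ addback. Lhx2, needed for forebrain and eye development, had −log10 p values of 6.15 and 4.20 with SETα and 3.39 in SETβ addback replicate 2. Dlx genes, which act in forebrain and craniofacial development, had 2 and 1 of 4 members with SETα addback and 1 and 0 with SETβ. Dlx2 had 7.12 and 6.50, and no other member had a −log10 p above 6 in both SETα addback libraries.

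Pax and Gata genes had the fewest peaks. Of 9 Pax members, 1 had a peak in each SETα addback library, and it was Pax7, a factor of muscle satellite cells and neural crest, with −log10 p values of 7.63 and 4.93. Pax5, a factor of B cells, had a peak in SETβ addback replicate 2 alone (5.59). The other 7 Pax members had none in any library. Of 6 Gata members, Gata2, a factor of blood progenitors, had 1 peak, of −log10 p 3.51 in SETα addback replicate 2, and the others had none. Other members with no peak in any library included Lhx3, Lhx4, Lhx8, Lhx9, Nkx2-1, Nkx2-6, Dlx1, Dlx5, Tbx5, Tbx15, Tbx19, Tbx20, Tbx22, Sox3, Sox6, Sox7, Sox10 and the 3 Hox genes named above.

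**Figure D4:**
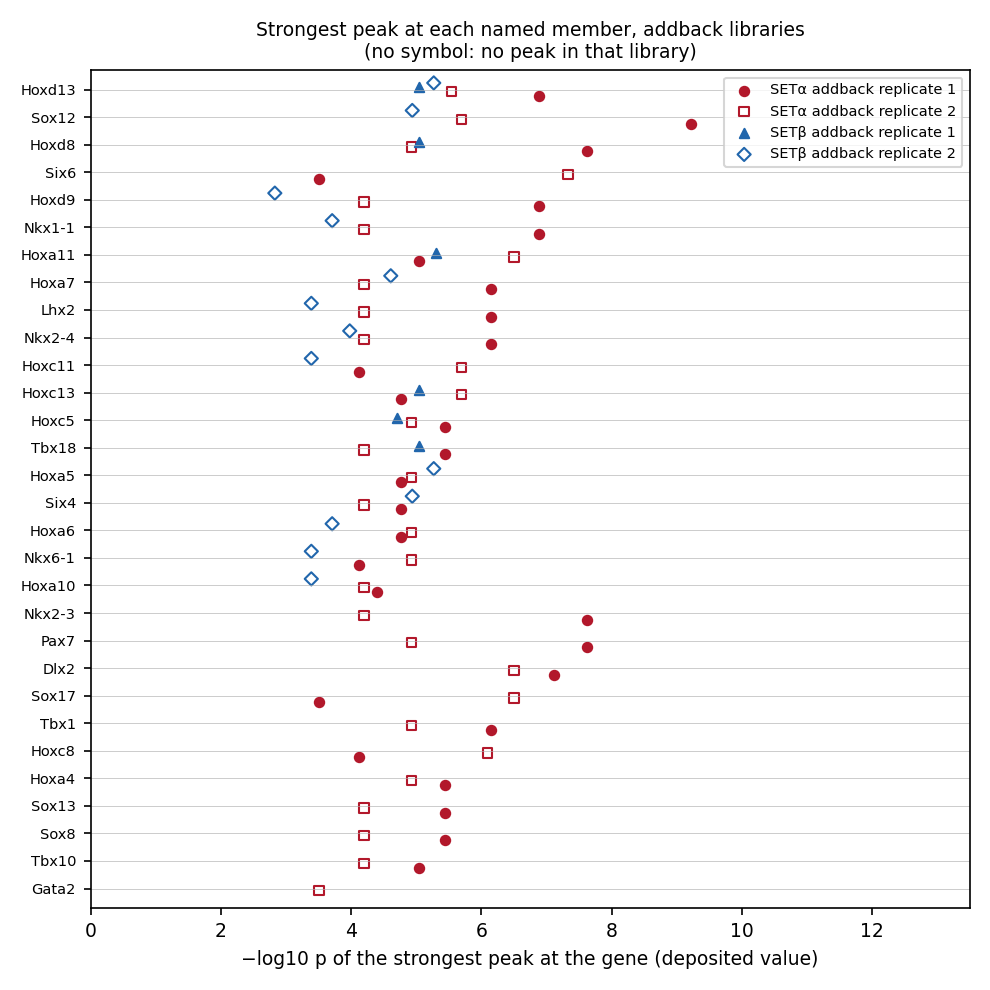
Deposited −log10 p of the strongest peak at each of 30 named members (rows) in the 4 addback libraries (symbols); a missing symbol means no peak. Hoxd13 is the row with all 4 symbols, and SETβ addback replicate 1 (filled triangles) appears in 6 rows.

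Peaks at members were not among the strongest of their lists. The strongest peak per member had a median −log10 p of 5.04 in SETα addback replicate 1 (range 2.41 to 9.22), where the median over all coding genes with a peak was 4.79 and the maximum 155.65. In replicate 2 it was 4.93 (3.15 to 9.09) against 5.70 (maximum 115.44). In SETβ addback it was 5.05 (4.70 to 5.31) against 5.69 in replicate 1, and 4.61 (2.83 to 6.99) against 4.61 in replicate 2. By median rank as a percentage of the list, where 0 is the strongest, members stood at 32.5%, 50.4%, 55.0% and 38.4% in the 4 libraries and coding genes at 33.6%, 31.9%, 39.6% and 34.7%. Members thus ranked lower in SETα addback replicate 2 and in SETβ addback replicate 1. In SETβ addback replicate 2 members and coding genes had the same median −log10 p (4.61) and the same median fold (3.15). Ranks within such ties followed chromosome name, so the rank gap there does not show weaker peaks. The maxima compare 7 to 46 members with 1617 to 6591 genes. The highest fold at a member was 4.73 and 5.20 with SETα and 3.36 and 3.91 with SETβ, where coding genes reached 31.5, 30.2, 29.9 and 28.7.

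A threshold on q, the peak's p as adjusted for multiple testing by the peak caller, lowered the number of members with a peak in every addback library. With a q of at most 0.05, 29 and 30 members had a peak in the SETα addback libraries (29.9% and 30.9%, against 22.0% and 24.2% of coding genes). In the SETβ addback libraries 1 and 6 did (1.03% and 6.19%, against 4.85% and 7.39%). A count of 29 of 97 has a Wilson 95% interval of 21.7% to 39.6%, and 1 of 97 one of 0.182% to 5.61%. Both include the coding share, so no difference was detectable in replicate 1 of either isoform. The counts of 30 and 6 have no interval here. With a −log10 q of at least 5, 1 member was left in each SETα addback library (1.03% each, against 3.88% and 4.52% of coding genes) and 0 in each SETβ addback library (against 2.69% and 2.62%). These members were Sox12 in SETα addback replicate 1 and Six5 in replicate 2, named after their values were seen, so no Hox member was left. At a q of at most 0.05, 11 and 17 of 29 Hox members and 18 and 13 of the other 68 had a peak in SETα addback. In SETβ addback 1 and 2 Hox members and 0 and 4 others did. Of the 31 members chosen for naming, 25 had a peak in fewer libraries at a q of at most 0.05, and 6 in the same number. Among the 25, Hoxa10 and Gata2 had no library left. Counts of 0 and 1 of 97 allow shares of up to 3.81% and 5.61% (Wilson 95%), which are above these backgrounds at the stricter threshold, so a difference from other genes was not detectable there.

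Lists were also limited to a fixed number of strongest peaks. Among the strongest 500 peaks no member had a peak in any addback library, where 2.31%, 2.54%, 2.64% and 2.63% of coding genes did. A count of 0 allows up to 3.81%, so a lower share at members was not detectable at this length. With the strongest 1343 peaks, 1, 1, 3 and 1 members had a peak in these 4 libraries, against 4.65%, 5.77%, 5.39% and 4.96% of coding genes. The best-ranked peak at a member stood at rank 999, 997, 1156 and 758 in the 4 libraries. With the strongest 2518 peaks, the number in the shortest addback list, 8 members (8.25%) had a peak in SETα addback replicate 1 against 7.70% of coding genes, and 4 (4.12%) in replicate 2 against 9.23%. In SETβ addback the counts were 7 (7.22% against 8.41%) and 6 (6.19% against 7.59%). At this equal number of peaks the isoforms' counts overlapped. In SETα addback replicate 2 the limit fell within peaks of equal −log10 p (6.50) and fold (4.23), and such ties were ordered by chromosome name. Of these, Sox17 was kept and Hoxc12, Dlx2 and Hoxa11 were not, so the count of 4 and the extent of the overlap depend on that order. With the strongest 9768 peaks, SETα addback libraries had 29 (29.9% against 21.1%) and 30 members (30.9% against 24.7%), and SETβ addback replicate 2 had 29 (29.9% against 18.4%). Members thus stood above coding genes in 1 of 4 libraries at 2518 peaks and in all 3 at 9768.

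**Figure D5:**
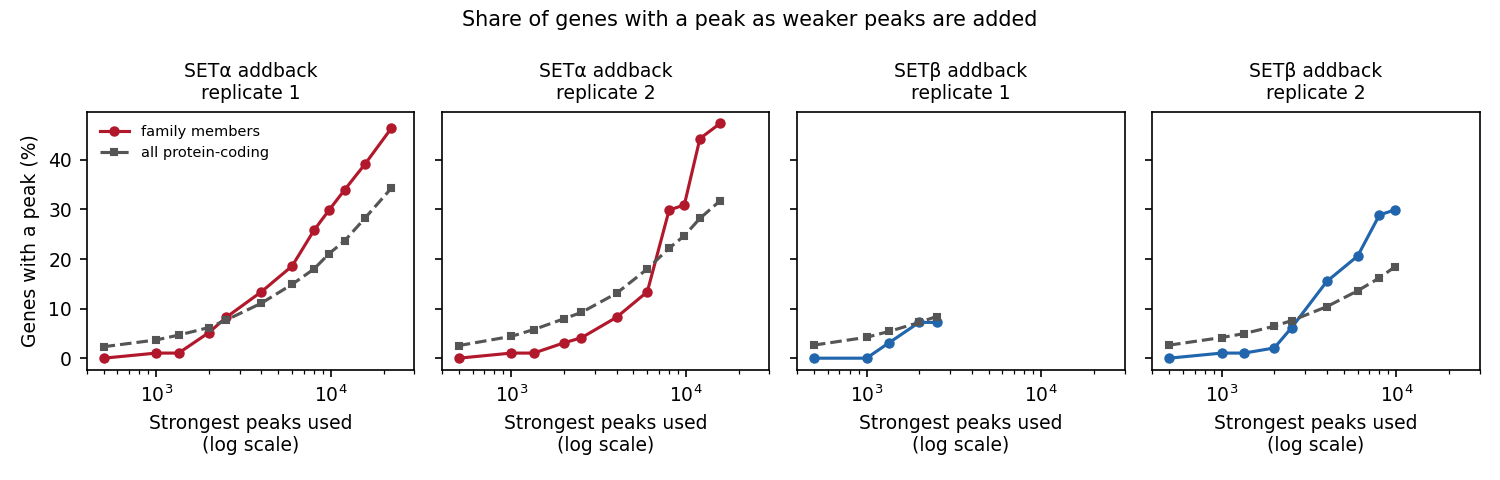
Share of genes with a peak (%, vertical axis) as the number of strongest peaks used grows (horizontal axis, log scale), for family members (solid, circles) and all protein-coding genes (dashed, squares) in each addback library. Members lie under the coding line at 500 and 1343 peaks in all 4 panels and above it at the full length of 3 lists, the exception being SETβ addback replicate 1.

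Peaks called at the same member in 2 libraries often lay at different positions. Of the 33 members called in both SETα addback libraries, 18 (54.5%) had peaks that overlapped by at least 1 bp, against 75.7% of coding genes called in both. Between SETα addback replicate 1 and the SETβ addback libraries, 5 of 7 (71.4%, against 86.5%) and 12 of 20 (60.0%, against 72.3%) overlapped. Between SETα addback replicate 2 and the SETβ libraries, 2 of 6 (33.3%, against 85.7%) and 8 of 17 (47.1%, against 72.7%) did. In these 5 pairs the share at members was below that at coding genes. The SETβ addback libraries shared 1 member, Hoxd13, whose peaks overlapped (88.0% for coding genes). Part of a gene's shared call therefore rests on separate peaks, as at Hoxa5, Hoxc11 and Hoxd11 between the SETα replicates.

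Member peaks also lay farther from a gene end. The median distance from the summit to the nearest end was 418 and 457 bp at members in the SETα addback libraries, against 323 and 301 bp at coding genes. In SETβ addback it was 417 and 470 bp against 200 and 296 bp. Median widths at members were 306, 301, 249 and 271 bp in these 4 libraries, against 323, 328, 347 and 295 bp. The distance was greater at members in all 4 libraries and the width smaller. Narrowing the window to 250 bp left 27, 27, 2 and 14 members with a peak (27.8%, 27.8%, 2.06% and 14.4%, against 23.9%, 22.7%, 6.26% and 12.0% of coding genes). Counting a peak anywhere in the gene or within 1 kb gave 69, 62, 11 and 43 members (71.1%, 63.9%, 11.3% and 44.3%, against 46.5%, 41.0%, 10.7% and 28.3%).

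Peaks near 9 members could also belong to a coding gene outside these families, because such a gene lies beside Lhx3, Nkx6-2, Pax6, Pax9, Six4, Six5, Sox13, Tbx10 and Tbx6. The other 88 members have no such neighbour, but Hox genes among them adjoin each other and share peaks. Of these 88, 41 (46.6%) and 42 (47.7%) had a peak in SETα addback, and 7 (7.95%) and 26 (29.5%) in SETβ addback, close to the shares over all 97. Coding genes not beside another coding gene stood at 26.7%, 24.0%, 5.76% and 13.7% in these libraries, and those beside one at 51.2%, 49.4%, 14.3% and 28.8%. Against the former, the 88 stood higher in all 4 libraries, SETβ addback replicate 1 included. The match is not exact, because members that adjoin only other members are among the 88.

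Several members had more than 1 peak. There were 63, 60, 7 and 34 distinct peaks at member ends in the 4 addback libraries, which was 0.840%, 0.897%, 0.495% and 0.996% of all peaks at coding gene ends. The members are 0.504% of all coding genes. More than 1 peak was found at 16, 13, 0 and 4 members (16.5%, 13.4%, 0% and 4.12%, against 9.31%, 7.76%, 0.322% and 2.27% of coding genes). Sox4, a SoxC factor named here after its values were seen, had 4 peaks in SETα addback replicate 1, and Hoxa5 had 4 in SETβ addback replicate 2.

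A list of other developmental transcription factors held 50 genes of the Fox, Irx, Zic, Otx, Pou and basic helix-loop-helix families and others, of which 43 lie on the chromosomes analysed. With SETα addback 30 (69.8%) and 20 (46.5%) had a peak, against 34.3% and 31.8% of coding genes. With SETβ addback 4 (9.30%) and 9 (20.9%) did, against 8.41% and 18.4%. No overexpression library or IDR list had a peak at any of them. Gbx2, which positions the midbrain-hindbrain boundary, had peaks in all 4 addback libraries, with −log10 p values of 5.18 and 3.51 with SETα and 4.43 and 6.67 with SETβ. Eomes, a T-box factor of mesendoderm whose name keeps it out of the Tbx family, had 6.15 and 4.93 with SETα and 5.59 in SETβ addback replicate 2.

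Of the genes the rule keeps out, Sox2 and Tbx3 lie on the chromosomes analysed, and both are known as factors expressed in embryonic stem cells. Sox2 had peaks in all 4 addback libraries, of −log10 p 5.95 and 5.70 with SETα and 4.75 and 3.38 with SETβ. Tbx3 had 6.88 and 3.15 with SETα and 6.67 in SETβ addback replicate 2. Neither had a peak with overexpression or in an IDR list, and the values of both lay within the range of the members.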

How the data were processed

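HA ChIP-seq peak lists of 8 libraries and 4 IDR lists were used. Peaks had been called per library by the authors, and the deposited narrow peak files carry, per peak, a score, a fold enrichment (a linear ratio), a −log10 p and a −log10 q without a header. The deposited IDR lists combine both replicates, and their score is the authors' too. All these values are the authors' own and were used to describe, rank or filter peaks within a list. The −log10 p also ordered the named members across libraries, and the weakest IDR peak was set against values of single libraries. Values printed side by side for different libraries were not rescaled between lists. The submitters' processing notes name Bowtie2, MACS2 and deepTools and the builds GRCm38 and mm10; versions, parameters, control libraries and any pooling are not given in the sources used here.

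Genes and sequences came from RefSeq tables of GRCm38.p6. A gene had a peak where a peak overlapped a window of 1 kb on either side of either end. Chromosomes 8 and 11 and 3 mitochondrial peaks were left out. Shares have Wilson 95% intervals. Isoform labels were moved within backgrounds, and background labels within isoforms, in an exact two-sided permutation test over libraries (36 arrangements). Overlap of peaks meant at least 1 shared bp. The overlap and permutation code was tested on simulated data. Python 3.11.15, pandas 2.3.3, numpy 2.4.6, scipy 1.17.1 and matplotlib 3.10.9 were used.

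The genes and lists were chosen with earlier results of these data known. Named genes were members with a peak in an IDR list or in both replicates of a group, ordered by the number of libraries with a peak and then by the highest −log10 p, at most 30, plus the first member of each family; some members are not reported here by name. Alternatives varied the window, q, the number of strongest peaks, the gene set and the libraries. Read depth per library is unknown, and no label pairs the replicates.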

Additional observations from a re-analysis of the deposited data

How the results depend on the processing

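The isoform difference in the share of members (13.7 points) ran from 7.99 to 19.3 points when each library was left out in turn, and the difference between SET KO and SET wild type (32.2) from 26.5 to 37.9. After subtraction of all coding genes, they (3.66 and 10.3) ran from 0.480 to 6.83 and from 7.08 to 13.4. The extremes came without a SETβ addback library. Some directions turned under the strictest settings on peak strength, while the background difference in the members' share stayed above 0 and all 4 values kept their sign with a q of at most 0.05. With a −log10 q of at least 5, the subtracted isoform and background differences were −0.273 and −2.90. With the strongest 1343 peaks of every library they were −0.573 and −3.10, and the isoform difference of the members' share was −0.515. With the strongest 2518 of each addback library, an alternative added after seeing the data, the isoform differences were −0.515 for the members' share and −0.983 after subtraction. The limit of 2518 fell within tied peaks of SETα addback replicate 2, so these values depend on the order given to ties. Without the Hox genes the background difference was 24.3 points and 2.31 after subtraction, and the subtracted isoform difference was 1.03. With a window of 250 bp the isoform differences were 9.79 and 2.51 and the subtracted background difference 2.47. With a q of at most 0.05, also added later, the background difference was 17.0 and 2.67 after subtraction. With whole genes, the values were 20.1, 45.9, 7.77 and 17.6. These values are averages over strata. Within SETβ, the subtracted background difference was −0.536 without the Hox genes, −0.427 with a window of 250 bp and −2.45 with a q of at most 0.05. Within SETα it was 5.16, 5.37 and 7.79 in the same settings. The cause was not tested. With the replicate number as a block, the values stayed at 13.7, 32.2, 3.66 and 10.3, with exact permutation p of 0.500, 0.125, 0.500 and 0.250 over 16 arrangements; the libraries share only a number. No member had a peak in an IDR list under any alternative run. A window at the start alone was not run, because starts were listed for 70 of 97 members. Peak lists give no read depth, so a gene without a peak is one where none was detectable.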

Other observations

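Genes of the Polycomb complexes, which keep developmental genes silent, were looked at as a list of 30, of which 24 lie on the chromosomes analysed. In SETα addback 16 (66.7%) and 13 (54.2%) had a peak within 1 kb of a gene end, against 34.3% and 31.8% of all coding genes. In SETβ addback 1 (4.17%) and 3 (12.5%) did, against 8.41% and 18.4%. Phc1, a subunit of Polycomb repressive complex 1, had a peak in all 4 addback libraries, with −log10 p values of 9.26 and 11.21 with SETα and 4.84 and 8.37 with SETβ, and in both SETα overexpression libraries (4.33 and 4.16). It was the gene of this list with a peak in the SETα addback IDR list. Phc1 lies in the 18 Mb segment of chromosome 6 that holds 69.4% and 62.2% of the peaks of the SETα overexpression libraries, and the part of that segment in its peaks was not tested. Eed, a core subunit of Polycomb repressive complex 2, had 3.51 and 10.00 with SETα addback only, and Jarid2, an accessory subunit, had 4.40 and 7.33 with SETα addback and 2.55 in SETβ overexpression replicate 1.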
